A study of Gallus gallus with 3 samples.

Results

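In chick (Gallus gallus) somites, 191 transcripts were higher after injection of either of 2 oligonucleotides than without injection, and stood at similar levels after the 2 injections. They were chosen from the measured values themselves. A transcript was kept when its mean over the 3 libraries was at least 5 CPM (counts scaled to a common library size), when its CPM + 1 was at least 1.5 times that of the non-injected library in both injected libraries, and when the injected libraries lay less than 1.5-fold apart. The 191 were 1.203% of the 15878 Ensembl transcript identifiers listed and 1.76% of the 10844 that averaged at least 5 CPM. Every fold below is a ratio of CPM + 1 unless plain CPM is named, and since the rule used all 3 libraries, every value of the members is a description without a test.

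The somites came from embryos of Hamburger-Hamilton stages 14 to 16, and the labels describe the tissue as embryonic progenitors of the musculoskeletal system. One library held somites injected with antagomiR-206, an antisense oligonucleotide against the microRNA miR-206. Another was made after injection of a scrambled antagomiR, and the last from uninjected somites of the opposite side. The labels do not give the genotype or strain, the dose, the time after injection, the number of embryos per library or which embryos gave the non-injected side. With 1 library per group, no difference below has a replicate check, and injection, side of the body, embryo and library cannot be told apart.

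Somites are paired blocks of mesoderm beside the neural tube. They give rise to the dermomyotome and myotome, which form skeletal muscle and dermis, and to the sclerotome, which forms the axial skeleton. miR-206 is a microRNA of the muscle lineage, which base-pairs through its seed with messenger RNAs and lowers their output, and an antagomiR binds the microRNA and blocks it. A scrambled antagomiR serves as the control without an intended microRNA target.

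The deposited table gives transcript identifiers without gene names. In the RefSeq gene table of assembly GRCg7b, 0 of the 15878 listed identifiers were found, and so 0 of the 191 members. Gene names, positions, sequences and marker genes of somites or of other tissues are therefore not reported, and the labelled tissue was not checked against markers. The libraries held 16496794 counts (antagomiR-206), 20176114 (scrambled) and 18332350 (non-injected). Bulk RNA was measured, in which more cells of a type and more RNA per cell cannot be told apart.

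The members covered a wide range of levels. In the non-injected library they ran from 3.02 to 270.4 CPM with a median of 21.4, below the median of 36.6 CPM over all 10844 transcripts. In the antagomiR-206 library they ran from 6.12 to 459.0 CPM with a median of 39.6, and in the scrambled library from 5.53 to 408.2 CPM with a median of 36.6. The medians over all 10844 were 37.2 and 38.1 CPM in those libraries. The typical member thus lay below the typical transcript without injection and near it after either injection. The rule itself asks for a lower level without injection, so this order is a description only. Without injection 48 members were under 10 CPM, 40 lay between 10 and 20 CPM, 66 between 20 and 50 CPM, 27 between 50 and 100 CPM, and 10 were at 100 CPM or above. All transcripts were not counted in these ranges, so nothing is read from these counts.

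**Figure D1:**
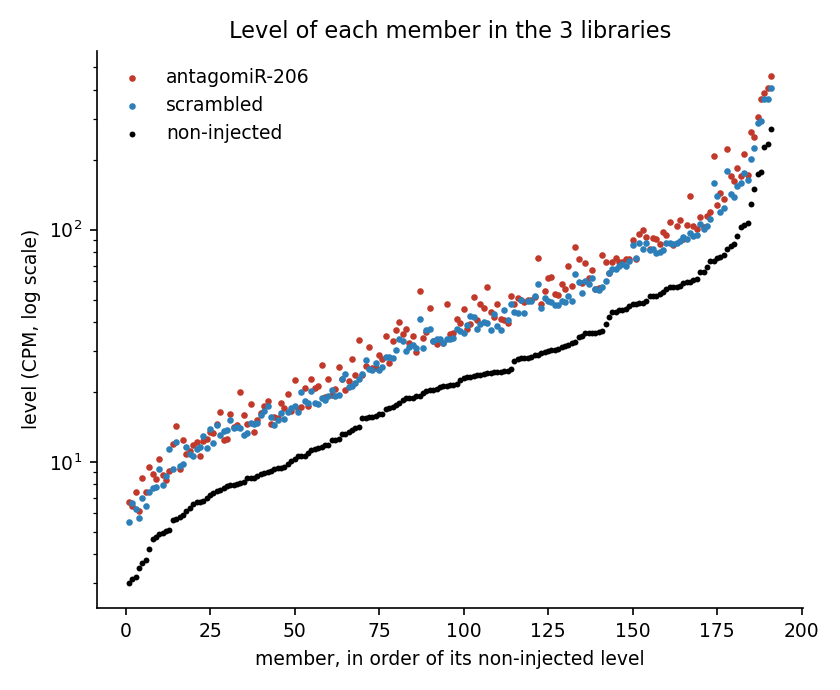
Level of each of the 191 members (CPM, log axis) in each of the 3 libraries (red antagomiR-206, blue scrambled, black non-injected), 1 point per member and library, ordered along the x axis by non-injected level. The non-injected points lie below both injected ones throughout, as the rule requires, from 3.02 CPM at the left to 270.4 CPM at the right.

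Together the members took 0.611% of the counts of the non-injected library (95% Wilson interval 0.608 to 0.615), 1.04% of the scrambled library (1.034 to 1.043) and 1.23% of the antagomiR-206 library (1.224 to 1.235). All intervals given here express counting error alone, and PCR copies of a molecule are counted as if separate. Summed over the members, the level was 6390 CPM without injection, 10431 CPM after the scrambled oligonucleotide and 11709 CPM after antagomiR-206. The summed level was thus 1.63-fold and 1.83-fold that of the non-injected library in plain CPM. The rule asks for a rise in both injected libraries, so their sums and shares lie above the non-injected ones by construction.

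The rule was limited mostly by the scrambled library. Of the 10844 transcripts, 965 (8.90%) passed the 1.5-fold condition with antagomiR-206 and 259 (2.39%) with the scrambled oligonucleotide. Both conditions held for 196 (1.81%), which left 769 that passed in the antagomiR-206 library alone and 63 in the scrambled library alone. Both comparisons use the same non-injected library. Their ratios are therefore not independent of each other.

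**Figure D2:**
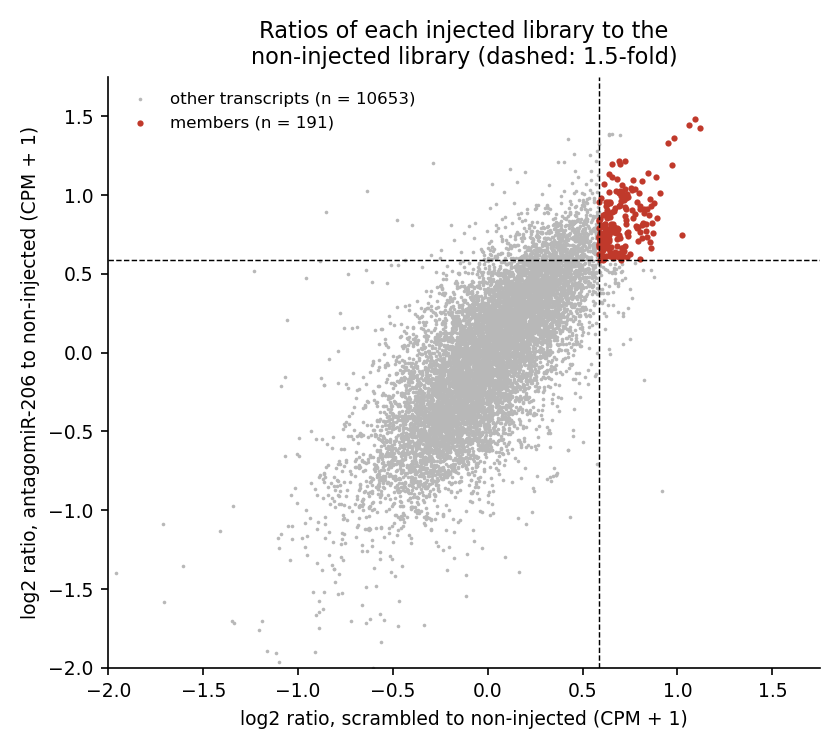
Log2 ratio to the non-injected library for scrambled (x axis) and antagomiR-206 (y axis), on CPM + 1, with 1 point per transcript. The 191 members are in red and the 10653 others in grey, dashed lines mark 1.5-fold, and 19 transcripts, none of them a member, lie beyond the axes. Most members sit close to the vertical line, and 5 members lie further to the upper right.

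The differences were modest. In the antagomiR-206 library the members were a median of 1.73-fold above the non-injected library (lower quartile 1.63, upper quartile 1.92, highest 2.80). In the scrambled library the median was 1.59-fold (quartiles 1.54 and 1.67, highest 2.17). Over all 10844 transcripts the medians were 1.01-fold in both comparisons. On the log2 scale the members' medians were 0.79 and 0.67, beside 0.01 and 0.02 for all.

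Many members lay just above the threshold. In the scrambled library 99 of 191 (51.8%) were under 1.6-fold, 75 lay from 1.6 to under 1.8, 13 from 1.8 to under 2, and 4 reached 2-fold or more. With antagomiR-206, 39 (20.4%) were under 1.6-fold, 76 lay from 1.6 to under 1.8, 45 from 1.8 to under 2, and 31 were at least 2-fold higher. Among all 10844 transcripts, 4 (0.0369%) reached 2-fold with the scrambled oligonucleotide, all 4 of them members, and 68 (0.627%) with antagomiR-206. The rule itself favours such transcripts and cuts off every ratio under 1.5. All transcripts were not counted in the ranges under 2-fold. Nothing is therefore read from any of these counts, those just above the threshold included.

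The 3 members with at least a 2-fold higher level after both injections were the first 3 in order of the smaller of their ratios. ENSGALT00000021577 was at 82.4 CPM without injection (1445 counts), at 222.6 CPM with antagomiR-206 (3856 counts) and at 179.8 CPM with the scrambled oligonucleotide (3610 counts). In plain CPM it was 2.70-fold higher with antagomiR-206 (exact Clopper-Pearson 95% interval 2.54 to 2.87) and 2.18-fold higher with the scrambled oligonucleotide (2.05 to 2.32). The antagomiR-206 library was the highest of the 3, 1.24-fold above the scrambled one (1.18 to 1.30).

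ENSGALT00000015897 was at 73.6 CPM without injection (1291 counts), at 207.8 CPM with antagomiR-206 (3601 counts) and at 158.2 CPM with the scrambled oligonucleotide (3177 counts). In plain CPM it was 2.82-fold higher with antagomiR-206 (exact 95% interval 2.65 to 3.01) and 2.15-fold higher with the scrambled oligonucleotide (2.01 to 2.30). The order of the libraries was that of the first transcript, with antagomiR-206 1.31-fold above scrambled (1.25 to 1.38). The third of these members was at 19.3 CPM without injection, 54.2 CPM with antagomiR-206 and 41.3 CPM with scrambled.

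These 3 belonged to a group of 5 members that stood at least 2.5-fold above the non-injected level with antagomiR-206, where every other member was at most 2.33-fold higher. The group was singled out after its values were seen. Its levels without injection ran from 19.3 to 82.4 CPM. Its folds were 2.51 to 2.80 with antagomiR-206 and 1.93 to 2.17 with the scrambled oligonucleotide, and its antagomiR-206 levels were 1.24 to 1.31 times the scrambled ones. The 5 stood in nearly the same proportions across the 3 libraries, at different levels, which the limits that chose them partly impose. The antagomiR-206 ratio reached 2.5-fold in 11 of all 10844 transcripts. Besides the 5 members, these held 5 non-members that passed both 1.5-fold conditions, at 2.51-fold to 2.61-fold with antagomiR-206. Of these non-members, 3 had nearly the same counts and may not be separate units. All 5 non-members were left out only because the injected libraries lay too far apart. Their antagomiR-206 folds were all at least 2.5, so none of them lay in the gap below the group.

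The level of a member set how well its ratio was known. The most abundant member had 4742 counts without injection, 7952 with antagomiR-206 and 8197 with scrambled, that is 270.4, 459.0 and 408.2 CPM. Its plain CPM ratios to the non-injected library were 1.698 (exact 95% interval 1.64 to 1.76) and 1.51 (1.46 to 1.57) in the antagomiR-206 and scrambled libraries. The least abundant member had 53, 116 and 111 counts in the same order of libraries, or 3.02, 6.70 and 5.53 CPM. Its ratios were 2.22 (1.59 to 3.13) and 1.83 (1.31 to 2.59). The plain CPM ratio of antagomiR-206 to scrambled was 1.21 (0.93 to 1.59), so the 2 injected libraries could not be ordered for it at this depth.

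All 191 members had exact 95% counting intervals above 1 for both plain CPM ratios, with lowest lower bounds of 1.25 for antagomiR-206 and 1.197 for scrambled. A ratio of 1.5 or more at these counts places the interval above 1 almost by construction, so this adds no support. The intervals lay wholly above 1.5 for 120 members in the antagomiR-206 library, for 51 in the scrambled library and for 43 in both. Over all 10844 transcripts this held for 428 (3.95%), 61 (0.563%) and 43 (0.397%), and since the rule used the same ratios nothing is read from these counts. For the other members a ratio under 1.5 in at least 1 of the libraries was within counting error.

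Between the injected libraries the members leaned towards antagomiR-206. The antagomiR-206 level was the higher in 153 members (80.1%) and the scrambled level in 38, whereas antagomiR-206 was the higher in 49.4% of all 10844 transcripts. The median ratio of antagomiR-206 to scrambled was 1.09 in the members, with quartiles of 1.02 and 1.19, and 0.996 over all transcripts. The rule limits this ratio to less than 1.5-fold and asks for a rise in both libraries, and the antagomiR-206 ratios to the non-injected library spread more widely over all transcripts (SD of log2 0.48 against 0.32). The lean is therefore given as a description.

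**Figure D3:**
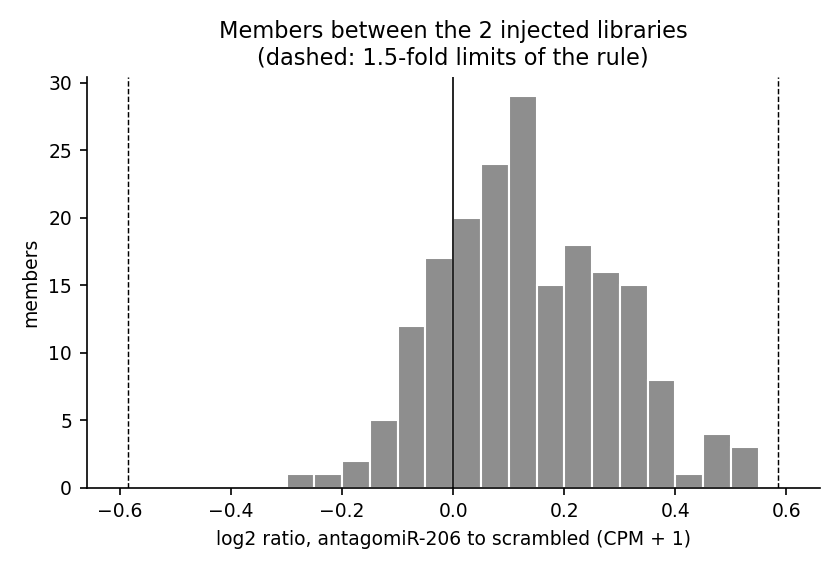
Histogram of the log2 ratio of antagomiR-206 to scrambled (CPM + 1) over the 191 members, with the number of members on the y axis. The solid line marks equal levels and the dashed lines the 1.5-fold limits of the rule. The bars lie mostly to the right of equality, with 153 members higher in antagomiR-206 and 38 higher in scrambled.

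The levels after the 2 injections lay within the limit set by the rule. The injected libraries were less than 1.2-fold apart in 149 members (78.0%) and less than 1.1-fold apart in 101, beside 64% and 36.7% of all 10844 transcripts, to which no such limit applied. The exact 95% counting interval of the plain CPM ratio included equality for 105 members, lay above it for 82 and below it for 4. Over all 10844 transcripts it lay above for 28.4% and below for 31.1%. The member in which the injected libraries were most alike stood at 27.9 CPM without injection and at 49.99 and 49.95 CPM with antagomiR-206 and scrambled.

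In 41 members (21.5%) the antagomiR-206 level was at least 1.2 times the scrambled one, and in 1 the scrambled level was at least 1.2 times that of antagomiR-206. Over all 10844 transcripts these shares were 16% and 20.1%. Their median levels were 23.7 CPM without injection, 39.7 CPM with scrambled and 51.1 CPM with antagomiR-206, and 26 of them were at least 2-fold above the non-injected library in antagomiR-206. Among the 149 members within 1.2-fold the medians were 20.9, 34.0 and 35.7 CPM, and 5 reached 2-fold in antagomiR-206. In both kinds of member the ratio of scrambled to non-injected was much the same, at medians of 1.61-fold and 1.59-fold. The rule holds this ratio to at least 1.5-fold in every member. A member at least 1.2 times higher again in antagomiR-206 then comes near 2-fold by construction. The lowest antagomiR-206 fold among the 41 was 1.83, so nothing is read from these counts and medians.

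The widest gap between the injected libraries inside the rule was 1.46-fold. That member stood at 14.1 CPM without injection, 33.6 CPM with antagomiR-206 and 22.8 CPM with scrambled. In a single member scrambled exceeded antagomiR-206 by at least 1.2-fold. It stood at 5.07 CPM without injection (89 counts), 9.18 CPM with antagomiR-206 (159 counts) and 11.4 CPM with scrambled (228 counts), and it was the 1 transcript at least 2-fold higher with scrambled that did not reach 2-fold with antagomiR-206.

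The members were spread over the range of levels, with fewer at the top. When the 10844 transcripts were split into 10 equal parts by mean CPM, the members made up 1.29% of the lowest part (5.0 to 8.7 CPM) and between 1.29% and 2.68% of the next 7. They made up 1.11% of the 9th part and 0.645% of the highest (above 176 CPM), with 12 and 7 members. By the mirrored rule, transcripts at least 1.5-fold lower in both injected libraries and less than 1.5-fold apart between them, 199 (1.84%) were found. Those were placed differently in some parts, with 48 in the lowest part against 14 members, and 5 in the 8th part against 22 members. In the 2nd and 3rd parts the counts were close, at 30 against 26 members and 28 against 27. The highest 2 parts together held 27 against 19 members. The mean CPM that set the parts includes the injected libraries, which raises it for members and lowers it for the mirrored transcripts. Transcripts at equal levels without injection can thus fall in different parts, so nothing is read from these counts. The median log2 ratio over all transcripts of a part also moved with level. For antagomiR-206 against non-injected it was -0.07 in the lowest part, 0.07 in the 8th and -0.13 in the highest, and its part in these counts was not tested.

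**Figure D4:**
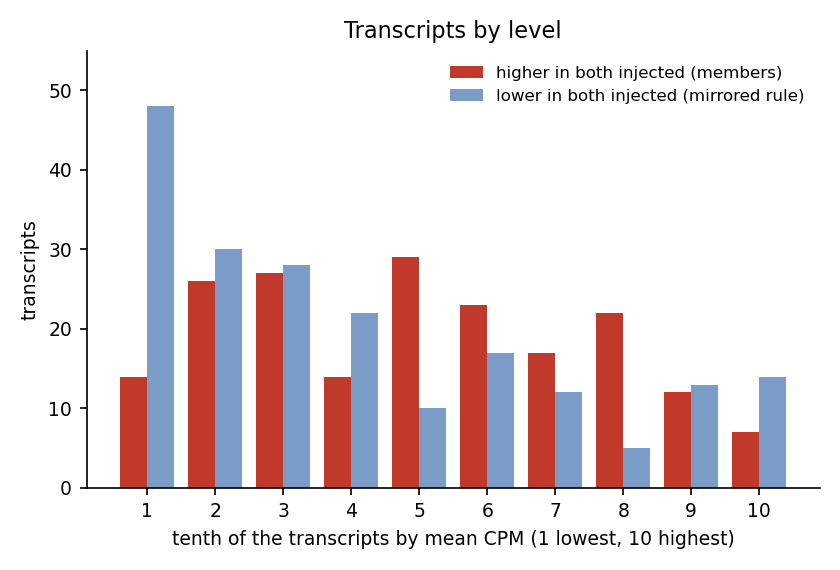
Number of transcripts (y axis) at least 1.5-fold higher in both injected libraries (red, the members) and at least 1.5-fold lower in both (blue, the mirrored rule), in 10 equal parts of the 10844 transcripts by mean CPM (x axis). The lower transcripts are most numerous in the lowest part, at 48 against 14 members. The members are found in all 10 parts, with 12 in the 9th and 7 in the highest. The mean includes the injected libraries, which places the 2 kinds of transcript differently by construction.

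Some identifiers in the table carry identical counts in all 3 libraries. This was so for 26 of the 10844 transcripts and for 0 of the members, so no member repeats the values of another identifier exactly. Counts within 2% of each other in every library were found for 10 pairs of members, which involve 17 members. Such pairs were not counted over all 10844 transcripts, and the rule holds the members to a narrow range of ratios. Unrelated transcripts can have such counts, but these members too may not all be separate units.

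At the edge of the rule the choice was narrow. The 2 members just inside had a smaller ratio of 1.5002, at 32.5 CPM without injection, 57.0 with antagomiR-206 and 49.3 with scrambled for one, and at 9.29, 15.5 and 14.4 CPM for the other. The 2 transcripts just outside had smaller ratios of 1.4996 and 1.4991, at 15.1, 26.0 and 23.2 CPM and at 3.42, 7.22 and 5.63 CPM in the same order. A further 5 transcripts passed both 1.5-fold conditions but were left out because the injected libraries lay too far apart. All 5 were higher in antagomiR-206, by 1.61-fold to 1.68-fold over scrambled, at 12.2 to 19.8 CPM with antagomiR-206. Of those 5, 3 had 122 counts each without injection, 342 or 343 with antagomiR-206 and 229 to 231 with scrambled, so they may not be separate units.

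The number of members rested on the scaling and on the thresholds. With library totals in place of TMM factors, the median log2 ratio over all 10844 transcripts rose from 0.01 to 0.14 for antagomiR-206 and from 0.02 to 0.07 for scrambled. The rule then found 316 transcripts, 189 of the 191 members among them, and the mirrored rule 138 in place of 199. With upper quartile factors the rule found 148 and the mirrored rule 241, so which count was larger depended on the scaling. At a 2-fold threshold with TMM factors the counts were 3 and 22. A change of scaling shifts the ratios of all transcripts nearly alike, so the members' median log2 ratio stayed about 0.78 above that of all transcripts for antagomiR-206 by construction. With 5 CPM added in place of 1 CPM, 82 transcripts met the rule, all of them members.

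**Figure D5:**
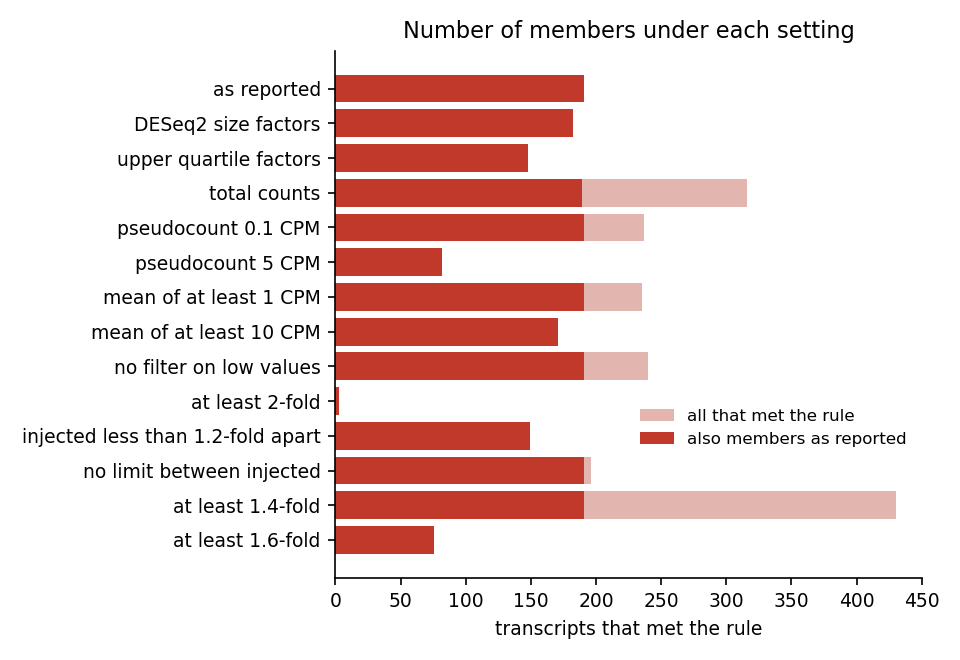
Number of transcripts that met the rule (x axis) under each setting (y axis), with dark red for those that are also among the 191 members as reported and light red for the rest. The number ran from 3 at a 2-fold threshold to 430 at a 1.4-fold threshold, and library totals gave 316.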

How the data were processed

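RNA of 3 chick somite libraries, 1 per group, was sequenced from libraries made with an Illumina mRNA-seq kit, per the labels' protocols. The authors deposited whole-number counts for 15878 Ensembl transcript identifiers. Not given in the sources used here are the aligner, counter, genome build, annotation and use of strand. Column abbreviations were matched to the titles of the samples by their letters, the antagomiR-206 title being the one left after the other 2. Counts were scaled to CPM with TMM factors (0.957 non-injected, 1.05 antagomiR-206, 0.995 scrambled) of edgeR 4.0.16 in R 4.3.3, with DESeq2 1.42.0 size factors among the alternatives. Ratios use CPM + 1, which understates changes of low transcripts. Intervals are exact 95% binomial intervals of the ratio of counts, or Wilson intervals of shares. No difference between groups was tested. The code that selects transcripts was checked on simulated counts with known changes, which says nothing about the members. The members, the rule and the lists were chosen with earlier results of these data known. The transcripts named are the 2 with the largest smaller ratio. Gene and marker lists could not be used without names.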

Additional observations from a re-analysis of the deposited data

How the results depend on the processing

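Depth limits the low members most: at 53 counts, the fewest of any member in a library, the exact interval of a ratio is wide, from 1.59 to 3.13 around 2.22. The number of members (191 as reported) was 316 with library totals, 82 with 5 CPM added and 3 at a 2-fold threshold. With thresholds chosen after the data were seen, it was 430 at 1.4-fold and 76 at 1.6-fold. DESeq2 size factors, upper quartile factors, 0.1 CPM added, other filters on low values and other limits between the injected libraries left it within 1.5 times, at 148 to 240. The number at least 2-fold higher in both injected libraries (3 as reported) was 6 with library totals, 6 with 0.1 CPM added and 0 with the injected libraries less than 1.2-fold apart. The members were chosen anew under each setting, so the fold threshold largely fixes their median log2 ratios. These medians (0.79 for antagomiR-206 and 0.67 for scrambled) were 1.45 and 1.09 at a 2-fold threshold, which raises them by construction. Otherwise they moved by less than the median half-width of the members' counting intervals (0.182 and 0.185). That half-width is the counting error of single ratios and not of a median, so nothing is read from this. Filters and thresholds cannot alter the ratios of the 2 named transcripts. Scalings and pseudocounts gave 20 recomputed ratios, of which 18 stayed inside their exact counting intervals and 2 left them: with library totals the antagomiR-206 ratios were 2.94 and 3.07. No replicate could be left out. No paired analysis was possible because the 3 groups have a single library each.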
